A study of Mus musculus with 4 samples.

Results

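The 9 chemokine receptor genes Ccr2, Ccr4, Ccr6, Ccr7, Ccr8, Cxcr3, Cxcr4, Cxcr5 and Cxcr6 were taken by symbol from the 54752 genes of the count tables, as receptors that position T and B cells. In Tfh-polarized Mek1/2-tKO cells, 6 of them rose relative to WT: Ccr2 by 16.2-fold (from 8 and 19 counts in WT, so that the fold depends on single WT libraries), Cxcr4 by 12.2-fold, Cxcr6 by 11.2-fold, Cxcr3 by 5.65-fold, Cxcr5 by 2.44-fold and Ccr6 by 1.69-fold. Ccr8 fell by 10.5-fold and Ccr4 by 3.09-fold. Ccr7 was 1.24-fold lower, which is under the fold change of 1.5 required for a call. Changes were widespread, with 19.3% of the 14330 genes tested called higher and 16.4% called lower in Mek1/2-tKO. In the same libraries Cd4 fell and B cell and NK cell markers rose, and their part in the receptor values was not tested.

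The libraries were made from naïve CD4+ T cells sorted from spleens of WT mice and of Mek1/2-tKO mice, which were homozygous for floxed Map2k1 and floxed Map2k2 and carried Cd4-Cre, so that Cre driven by Cd4 deletes the kinases MEK1 and MEK2 in T cells. The floxed lines were on a C57BL/6 background, and the age of the animals used here was not given in the sources used here. Cells of both genotypes were stimulated with anti-CD3 and anti-CD28 with IL-6 added and with TGF-β, IL-4, IFN-γ and IL-2 blocked by antibodies, and viable cells were sorted again on day 3, with 2 RNA-seq libraries per genotype. The labels do not say that replicates came from separate animals or cultures, so the p-values measure the spread between these libraries, which may be technical.

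Chemokine receptors are seven-pass membrane proteins that signal through inhibitory G proteins and steer cells along gradients of small secreted chemokines. In lymphoid organs CCR7 holds lymphocytes in the T cell zone, where CCL19 and CCL21 are made, and CXCR5 draws B cells and T follicular helper (Tfh) cells into follicles, where CXCL13 is made. CXCR4 and its ligand CXCL12 position cells in bone marrow and in the dark zone of germinal centers, whereas CCR4, CCR8, CXCR3, CXCR6, CCR6 and CCR2 are known mainly for guiding activated and effector lymphocytes to tissues.

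Map2k1, which encodes MEK1, was counted at 182 and 187 CPM in WT and at 98 and 105 CPM in Mek1/2-tKO (log2 fold change -0.86, adjusted p = 1.29e-06 in edgeR's quasi-likelihood test). CPM express a gene's counts relative to the total of its library, scaled by the trimmed mean of M values (TMM). Map2k2, which encodes MEK2, was at 155 and 165 CPM in WT and 172 and 182 CPM in Mek1/2-tKO (log2 fold change 0.15, 95% interval -0.02 to 0.32, adjusted p = 0.126). Reads from any exon outside the floxed parts would still count toward both genes, so the totals do not measure the deletion. The labelled cell type did not match its markers equally in both genotypes. Cd4 was at 297 and 289 CPM in WT and at 18.8 and 25.1 CPM in Mek1/2-tKO (log2 fold change -3.73, adjusted p = 2.43e-11, edgeR), and all 4 CD4 lineage markers fell, from summed levels of 546 and 556 CPM to 113 and 129 CPM. B cell markers rose, 15 of 15, from summed levels of 1350 and 1324 CPM to 7491 and 7398 CPM, with Ighm the most abundant at 696 and 670 CPM against 3068 and 3095 CPM. NK cell markers rose, 10 of 10, from 119 and 117 CPM to 751 and 686 CPM, with Nkg7 at 62.8 and 65.1 CPM against 436 and 405 CPM. These values stand beside every result below. B cells are known to carry CXCR5, CXCR4, CCR7 and CCR6, and NK cells CXCR3, CXCR6 and CCR2, and the part of these cells in the receptor values was not tested. In bulk RNA, more cells of a type and more RNA per cell cannot be told apart.

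Several receptors, Cxcr3 among them, had a large change and high counts in either genotype. The promoter sequences of Ccr4, Ccr8 and Cxcr4 are shown as examples, because they let the letters of known motifs be read beside the changes. They are the 250 bases before the RefSeq start site (GRCm38.p6), written 5′ to 3′ on the strand of the gene, with motif matches in capitals: Ccr4 on the minus strand at chr9:114496545-114496794, Ccr8 on the plus strand at chr9:120091883-120092132, and Cxcr4 on the minus strand at chr1:128592300-128592549.
Ccr4: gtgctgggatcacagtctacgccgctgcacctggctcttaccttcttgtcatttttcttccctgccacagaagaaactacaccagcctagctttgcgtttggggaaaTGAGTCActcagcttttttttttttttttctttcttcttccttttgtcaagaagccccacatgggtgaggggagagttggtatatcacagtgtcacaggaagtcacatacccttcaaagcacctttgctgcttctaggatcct
Ccr8: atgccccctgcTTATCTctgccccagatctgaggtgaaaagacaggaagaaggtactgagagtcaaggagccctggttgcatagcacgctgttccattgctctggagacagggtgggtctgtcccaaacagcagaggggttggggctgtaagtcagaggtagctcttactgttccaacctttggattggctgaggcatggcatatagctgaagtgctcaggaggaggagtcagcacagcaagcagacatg
Cxcr4: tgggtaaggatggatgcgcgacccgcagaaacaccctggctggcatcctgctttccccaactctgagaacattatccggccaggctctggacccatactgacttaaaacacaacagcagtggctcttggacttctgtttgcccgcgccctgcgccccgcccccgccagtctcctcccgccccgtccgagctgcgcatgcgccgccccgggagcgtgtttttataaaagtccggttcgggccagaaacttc
Each motif was searched on both strands in windows of 250 bases before to 50 bases after a start site. The Ccr4 window, from a start site inside the span of the gene in the deposited annotation, held TGAGTCA 143 bases before the start, a match to the AP-1 letters TGANTCA, which 7.81% of 32851 RefSeq windows held. The Ccr8 window held TTATCT 239 bases before the start, the reverse complement of the GATA letters AGATAA, found in 11.2% of windows. GATA letters were also in the windows of Ccr2, 97 bases before the start, and of Ccr6, 70 bases before the start of the second of its windows. Both of these matches lie inside the spans of their genes in the deposited annotation. No match to these letters, or to the ETS letters CCGGAA (14.9% of windows), the KLF letters CCACACCC (3.56%) or the T-box letters AGGTGTGA (1.28%), lay in the windows of Cxcr3, Cxcr4 and Cxcr6. RefSeq windows were matched for 7 of the 9 receptors, and not for Ccr7 and Cxcr5. The matches describe letters and do not show that a factor bound them.

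Among the 14330 genes tested, 35.8% were called in either direction, 19.3% higher and 16.4% lower in Mek1/2-tKO, where a call needed a change of 1.5-fold or more and an adjusted p below 0.05. Of the 9 receptors all were tested, and 6 were called higher, 2 lower and 1 neither. Their median log2 fold change was 1.29, against 0.02 over all genes tested. In none of the 9 did the WT and Mek1/2-tKO libraries overlap in CPM, as was the case for 78.3% of all genes tested, so this count does not set the receptors apart. Counts cover the annotated exons of each gene on GRCm38. Beside the positions given with the genes below, Ccr7 spans chr11:99144196-99155077 on the minus strand, Ccr6 chr17:8236043-8257141 on the plus strand, Cxcr3 chrX:101731535-101734269 on the minus strand, Cxcr6 chr9:123806475-123811760 on the plus strand and Ccr2 chr9:124101950-124113557 on the plus strand. The tables list them as ENSMUSG00000037944.8 (Ccr7), ENSMUSG00000040899.14 (Ccr6), ENSMUSG00000050232.6 (Cxcr3), ENSMUSG00000048521.8 (Cxcr6), ENSMUSG00000049103.14 (Ccr2), ENSMUSG00000047898.7 (Ccr4), ENSMUSG00000042262.5 (Ccr8), ENSMUSG00000045382.6 (Cxcr4) and ENSMUSG00000047880.15 (Cxcr5).

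**Figure D1:**
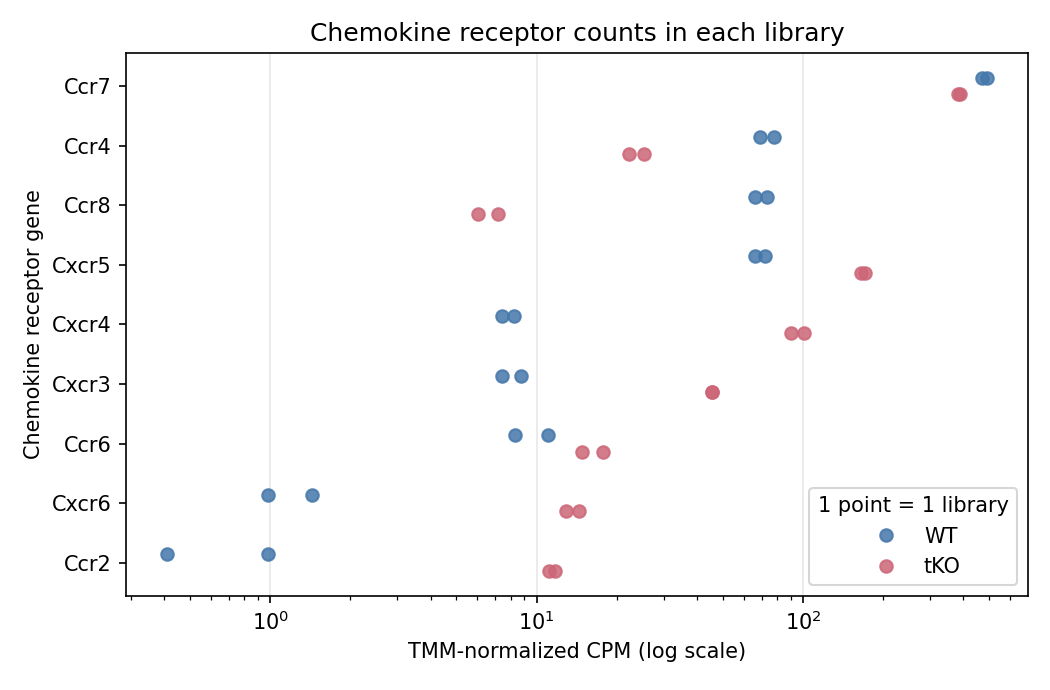
TMM-normalized CPM (x axis, log scale) of each of the 9 receptor genes (y axis) in the 2 WT libraries and the 2 Mek1/2-tKO libraries, 1 point per library. The genotypes are apart for every gene, with Ccr8 and Ccr4 lower and Cxcr4, Cxcr3, Cxcr6 and Ccr2 far higher in Mek1/2-tKO.

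The receptors that place cells within lymphoid tissue moved unequally. Cxcr5 had 1283 and 1389 counts in WT and 2558 and 3214 in Mek1/2-tKO, or 65.8 and 72 CPM against 165 and 171 CPM. Both Mek1/2-tKO libraries were above both WT libraries, and the log2 fold change was 1.29 (SE 0.09, adjusted p = 4.72e-08, edgeR). The span of Cxcr5, chr9:44511787-44561877 on the minus strand, shares 3.3% of its exon bases with Bcl9l on the other strand. Ccr7 was the most abundant receptor, with 9524 and 9049 counts in WT and 5925 and 7305 in Mek1/2-tKO. Its 489 and 469 CPM in WT lay above the 383 and 389 CPM of Mek1/2-tKO, a log2 fold change of -0.31 (95% interval -0.47 to -0.16, adjusted p = 0.00233). The interval lies on the lower side of 0 although the fold threshold was missed.

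Cxcr4, the receptor of CXCL12, had the smallest adjusted p of the 9. It went from 144 and 159 counts in WT to 1399 and 1899 in Mek1/2-tKO. The normalized values were 7.39 and 8.25 CPM in WT and 90.4 and 101 CPM in Mek1/2-tKO. This is a low level in both WT libraries and a high level in both Mek1/2-tKO libraries, with a log2 fold change of 3.61 (SE 0.13, adjusted p = 7.37e-11, edgeR). The gene spans chr1:128588199-128592293 on the minus strand.

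Ccr8 and Ccr4, known from regulatory and type 2 helper T cells, were the receptors that fell. For Ccr8, the receptor of CCL1, the libraries held 1424 and 1274 counts in WT and 93 and 134 in Mek1/2-tKO, with means of 69.6 ± 4.95 CPM (SD, n = 2) and 6.57 ± 0.798 CPM (SD, n = 2). The log2 fold change was -3.40 (SE 0.14, adjusted p = 3.10e-10, edgeR). For Ccr4, the receptor of CCL17 and CCL22, the libraries held 1516 and 1332 counts in WT and 344 and 474 in Mek1/2-tKO. That gave 77.8 and 69.1 CPM in WT against 22.2 and 25.2 CPM, a log2 fold change of -1.63 (SE 0.12, adjusted p = 7.98e-08, edgeR). Both genes lie on chromosome 9, Ccr4 at chr9:114490316-114504916 on the minus strand and Ccr8 at chr9:120092114-120094906 on the plus strand.

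Cxcr3, Cxcr6 and Ccr2 rose from low WT levels. Cxcr3, the receptor of CXCL9, CXCL10 and CXCL11 on type 1 helper and cytotoxic cells, had 144 and 168 counts in WT and 708 and 852 in Mek1/2-tKO. Its CPM rose from 7.39 and 8.71 to 45.7 and 45.4, a 5.65-fold change (95% interval 2.19 to 2.80 on the log2 scale, adjusted p = 7.79e-09, edgeR). Cxcr6, the receptor of the membrane-bound chemokine CXCL16, had 28 and 19 counts in WT and 199 and 270 in Mek1/2-tKO. The log2 fold change was 3.48 (SE 0.27, adjusted p = 1.96e-07, edgeR), and its span lies inside Fyco1 with no exon shared. Ccr2, a receptor of CCL2 and related chemokines on monocytes and effector T cells, had only 8 and 19 counts in WT, and 181 and 209 in Mek1/2-tKO. Its WT libraries had 0.411 and 0.985 CPM, the largest ratio between replicates among the 9, beside 11.7 and 11.1 CPM in Mek1/2-tKO. The log2 fold change of Ccr2 was 4.02 (SE 0.35, adjusted p = 4.76e-07, edgeR). Leaving out WT replicate 2 moved this to 4.77, and leaving out WT replicate 1 moved it to 3.52. Reads of Ccr2 that also map to a gene of similar sequence would have been lost from the uniquely mapped counts.

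Ccr6, the receptor of CCL20 on B cells and type 17 helper cells, changed least among the called receptors. It had 215 and 160 counts in WT and 229 and 334 in Mek1/2-tKO, or 11 and 8.3 CPM against 14.8 and 17.8 CPM. The log2 fold change was 0.75 (SE 0.19, adjusted p = 0.00446, edgeR). Without WT replicate 2 it was 0.56 with an adjusted p of 0.0391, and the call was lost because the fold change fell under 1.5.

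**Figure D2:**
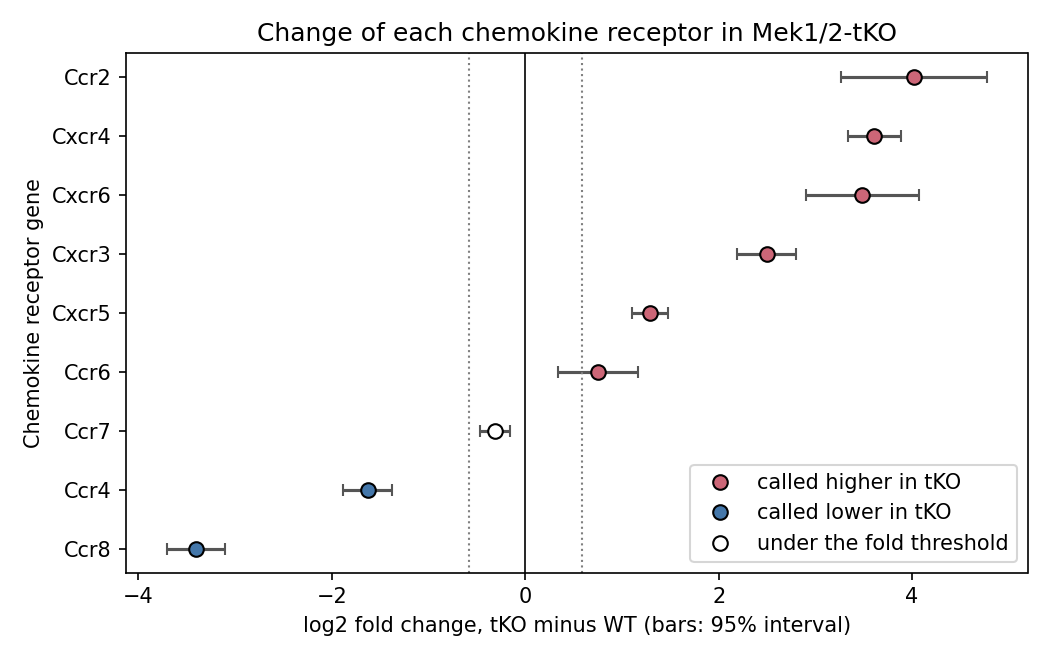
Log2 fold change of each receptor gene in Mek1/2-tKO relative to WT (x axis) with its 95% interval from edgeR, genes on the y axis, dotted lines at a fold change of 1.5 in either direction. Ccr2, Cxcr4 and Cxcr6 lie between 3.48 and 4.02, Ccr7 lies at -0.31 inside the dotted lines, and Ccr8 lies at -3.40.

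Levels of different genes were compared as CPM per kilobase of the exon length in the count tables. In WT the order was Ccr7 (242 ± 6.94, SD, n = 2), Ccr8 (59.2 ± 4.21), Ccr4 (23.7 ± 1.99), Cxcr5 (20.7 ± 1.32), and then Cxcr3 (4.65), Cxcr4 (4.32) and Ccr6 (4.17), with Cxcr6 at 0.627 and Ccr2 at 0.103 CPM per kb. The libraries of Cxcr3, Cxcr4 and Ccr6 overlapped, and all other neighbours in this order were separated. In Mek1/2-tKO the order was Ccr7 (195 ± 2.25), Cxcr4 (53), Cxcr5 (50.5 ± 1.26), Cxcr3 (26.3), Ccr4 (7.67), Cxcr6 (7.05), Ccr6 (7.02), Ccr8 (5.59 ± 0.679) and Ccr2 (1.69) CPM per kb. The libraries of Cxcr4 and Cxcr5 overlapped, as did those of Ccr4 and Cxcr6 and those of Cxcr6 and Ccr6, and the remaining neighbours were separated.

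The summed level of the 9 receptors was 368 and 351 CPM per kb in WT and 347 and 361 CPM per kb in Mek1/2-tKO, so the genotypes overlapped in the sum. Without Ccr7, which takes most of it, the sum was 121 and 114 CPM per kb in WT and 153 and 165 CPM per kb in Mek1/2-tKO, and the genotypes did not overlap. Ccr7 took 67.1 and 67.5% of the summed level in WT and 55.8 and 54.5% in Mek1/2-tKO. Ccr8 took 16.9 and 16% against 1.48 and 1.68%. Cxcr4 took 1.11 and 1.3% against 14.4 and 15.5%, and Cxcr5 took 5.37 and 6.15% against 14.3 and 14.2%. The level of Cxcr5 divided by that of Ccr7, which mark follicular and T zone positioning, was 0.08 and 0.0911 in WT and 0.256 and 0.261 in Mek1/2-tKO. The level of Cxcr4 divided by that of Ccr4 was 0.162 and 0.204 in WT and 6.96 and 6.85 in Mek1/2-tKO.

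**Figure D3:**
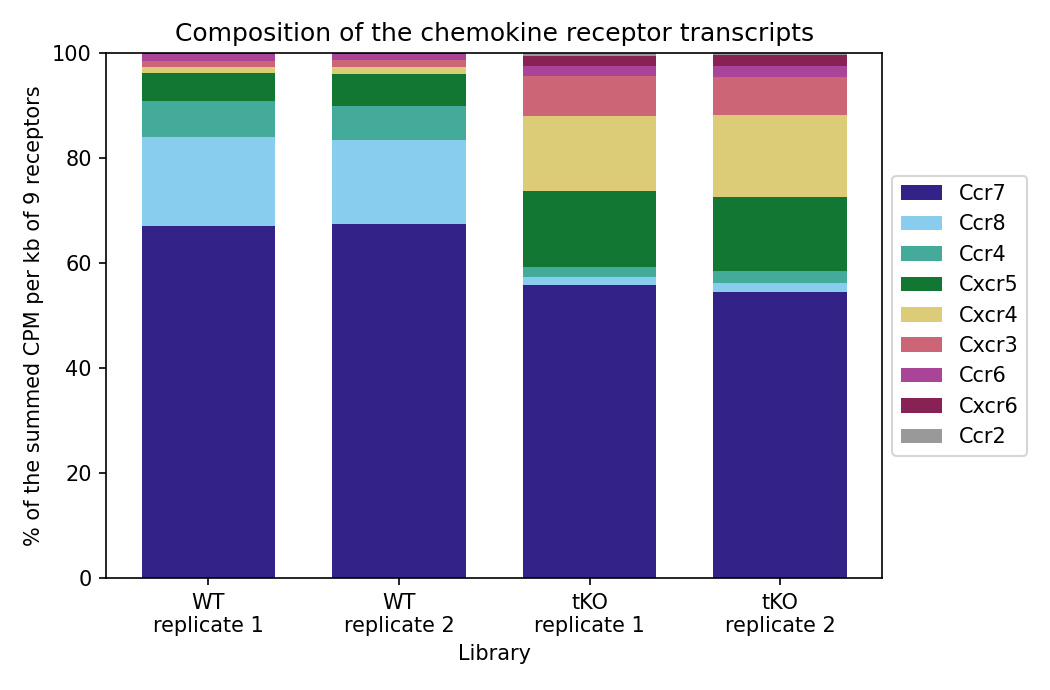
Share of each receptor gene in the summed CPM per kb of the 9 receptors (y axis, percent) in each of the 4 libraries (x axis). Ccr7 is the largest share in every library, Ccr8 and Ccr4 shrink in Mek1/2-tKO, and Cxcr4, Cxcr5 and Cxcr3 widen.

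The genes of the ligands were counted in the same cultures. Of 18 ligand genes, 17 were in the tables and 8 were tested. Of these 8, 7 rose and none fell, with a median log2 fold change of 2.05, against 0.02 over all genes tested. Of those genes, 19.3% were called higher and 16.4% lower. Ccl1, the ligand of CCR8, had 26 and 28 counts in WT and 5913 and 5555 in Mek1/2-tKO (log2 fold change 7.92, SE 0.17, adjusted p = 1.20e-12, edgeR), while its receptor gene fell. Cxcl16, the ligand of CXCR6, had 26 and 29 counts in WT and 215 and 294 in Mek1/2-tKO (log2 fold change 3.38, adjusted p = 1.09e-07). Of its exon bases 18.3% are shared with Zmynd15 on the other strand, and the strand setting of the counting is not given in the sources used here. The ligands of CCR4 rose as Ccr4 fell: Ccl17 went from 10 and 13 counts to 82 and 80 (log2 fold change 2.99, adjusted p = 4.87e-05), and Ccl22, at 56.6 and 62.1 CPM in WT, reached 148 and 130 CPM (log2 fold change 1.23, adjusted p = 2.21e-07). For CXCR3, Cxcl9 rose from 49 and 53 counts to 172 and 234 (log2 fold change 2.16, adjusted p = 4.93e-06). Cxcl10 rose by 1.06 on the log2 scale, and Ccl20, the ligand of CCR6, rose by 1.93 with an adjusted p of 0.0459, from 4 and 10 counts to 34 and 12. The Ccl20 call was lost without tKO replicate 1 (log2 fold change 0.81, adjusted p = 0.614), without WT replicate 1 (1.42, adjusted p = 0.22), with the replicate block (1.78, adjusted p = 0.106) and with DESeq2 (1.96, adjusted p = 0.124). Over all alternatives 6 to 9 ligand genes were called higher. Cxcl11 had 10 and 5 counts in WT and 10 and 12 in Mek1/2-tKO and was not called. Cxcl13, the ligand of CXCR5, was too low to be tested, with 10 and 18 counts in WT and 2 and 1 in Mek1/2-tKO. The filter on low counts thus left out a ligand gene that was lower, while Ccl20 passed it through its Mek1/2-tKO counts. The counts and the median of the tested ligand genes therefore depend on the filter, and with no filter 9 were called higher. Without WT replicate 1, and also with no filter on low counts, 1 ligand gene was called lower. The genes Ccl19, Ccl21a and Ccl21b of the CCR7 ligands and Cxcl12 of the CXCR4 ligand were at 0 counts in all 4 libraries, as were Ccl8 and Ccl12, and such a count leaves room for 3 counts, which are 0.154 to 0.194 CPM by library (counting error only).

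**Figure D4:**
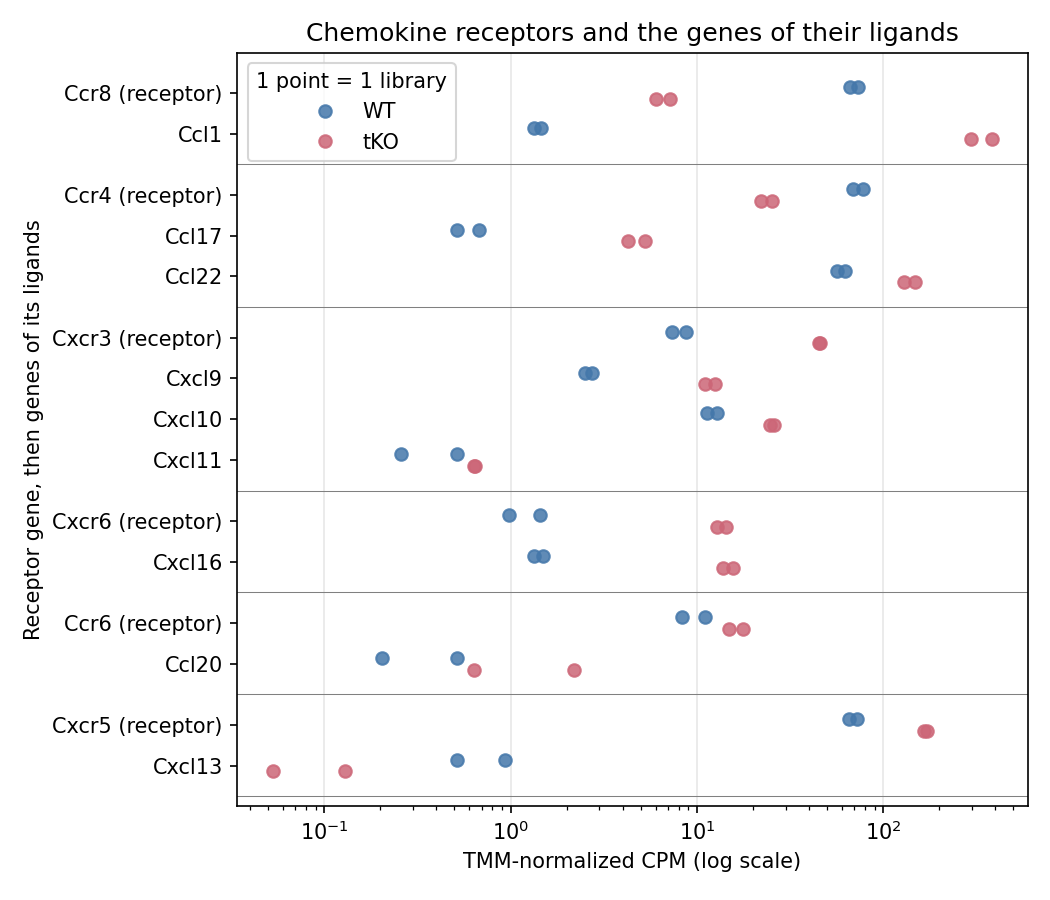
TMM-normalized CPM (x axis, log scale) of receptor genes and of the genes of their ligands (y axis) in each library, 1 point per library. Ccl1 rises from 1.33 and 1.45 CPM to 382 and 296 CPM where Ccr8 falls, while Cxcl16 and Cxcr6 are both higher in Mek1/2-tKO.

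Of the other chemokine receptors, Ccr1 had 4 and 2 counts against 60 and 42 (log2 fold change 4.24, adjusted p = 1.01e-04, edgeR), and Ccr9, a gut-homing receptor, 2 and 2 counts against 36 and 46 (log2 fold change 4.44, adjusted p = 1.16e-04). Ccr9 shares 19% of its exon bases with genes on the other strand. Both genes rose and, like Cxcr6, lie within 1 Mb of the start of Ccr2 on chromosome 9. In the same stretch Xcr1, Ccr1l1 and Ccr3 had at most 16 counts in any library and were not tested. Of the atypical receptors, which bind chemokines without G protein signalling, Ackr3, which binds CXCL12, fell from 36 and 27 counts to 6 and 8 (log2 fold change -1.98, adjusted p = 0.0134, edgeR). No atypical receptor was called lower without WT replicate 1, without tKO replicate 1 or with DESeq2. Ccrl2 was not called, at 106 and 91 counts in WT and 77 and 146 in Mek1/2-tKO.

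Downstream of the receptors, 27 signalling genes were tested, of which 5 rose, 4 fell and 18 were not called, with a median log2 fold change of -0.02. As 19.3% of all genes tested were called higher and 16.4% lower, these counts do not set the signalling genes apart. Grk3, a kinase that desensitizes G protein-coupled receptors, rose from 16 and 11 counts to 121 and 127 (log2 fold change 3.37, adjusted p = 3.56e-06, edgeR). Rasgrp2, an activator of the GTPase Rap1, rose from 9.65 and 10.7 CPM to 57 and 70.8 CPM (log2 fold change 2.65, adjusted p = 4.29e-09). Gng2, a G protein gamma subunit that shares 20.4% of its exon bases with a gene on the other strand, and Rac2, a GTPase of the cytoskeleton, rose by 1.08 and 0.70 on the log2 scale. Arrb1, an arrestin that internalizes receptors, fell from 36.2 and 40.8 CPM to 10.5 and 11.4 CPM (log2 fold change -1.81, adjusted p = 1.86e-07, edgeR). The more abundant Arrb2, at 83 and 93.7 CPM in WT and 76.2 and 74.4 CPM in Mek1/2-tKO, was not called. Nor was Grk2, more abundant than Grk3, at 379 and 411 CPM against 464 and 492 CPM. Itgal, a subunit of the integrin LFA-1, fell from 395 and 410 CPM to 248 and 239 CPM (log2 fold change -0.73). Pik3cg and Elmo1 also fell, with log2 fold changes of -0.62 and -0.60. The count of lower signalling genes was 2 without WT replicate 2 and 2 without tKO replicate 2. Gnai2, the main inhibitory G protein subunit of lymphocytes, was at 479 and 465 CPM in WT and 486 and 560 CPM in Mek1/2-tKO and was not called. Gnai2, Arrb2 and Grk2 were chosen after their values were seen.

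Of 9 other positioning receptors, all tested, 6 rose and 1 fell, with a median log2 fold change of 1.14. The shares over all genes tested were 19.3% higher and 16.4% lower. S1pr1, the sphingosine-1-phosphate receptor that lets lymphocytes leave lymphoid organs, rose from 5.7 and 6.69 CPM to 85.4 and 102 CPM (log2 fold change 3.92, adjusted p = 1.02e-10, edgeR). S1pr4 and Gpr15, which marks cells that home to the colon, both rose by 1.35 on the log2 scale. S1pr2, which holds cells in germinal centers, fell from 7.44 and 8.71 CPM to 4.84 and 4.58 CPM (log2 fold change -0.78, adjusted p = 0.0129). The count of lower genes in this list was 0 without WT replicate 2 and 0 with DESeq2.

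Of 11 transcription factors known to control these receptors, 9 were tested, 3 rose and 1 fell, with a median log2 fold change of 0.66. Among all genes tested, 19.3% were called higher and 16.4% lower. Klf2, which drives S1pr1 and restrains the Tfh program, rose from 84 and 132 counts to 1473 and 1969, or 4.31 and 6.85 CPM against 95.1 and 105 CPM (log2 fold change 4.16, adjusted p = 2.22e-10, edgeR). Bcl6, the defining factor of Tfh cells, rose from 7.44 and 5.55 CPM to 20.7 and 26 CPM (log2 fold change 1.85, adjusted p = 3.24e-06). Eomes, also counted among the NK cell markers, rose from 21.8 and 16.6 CPM to 65.6 and 61.7 CPM (log2 fold change 1.73, adjusted p = 1.71e-07). Gata3, the type 2 helper factor, fell from 36.3 and 35.7 CPM to 7.62 and 9.05 CPM (log2 fold change -2.10, adjusted p = 7.22e-08, edgeR). Whether any of the listed factors acted on the receptors in these cells was not tested. Tbx21, the type 1 helper factor, was at 134 and 136 CPM in WT and 107 and 122 CPM in Mek1/2-tKO. Its log2 fold change of -0.23 (adjusted p = 0.0378, edgeR) was under the fold threshold. Foxo1, at 42 and 46.6 CPM against 32 and 33.1 CPM, was also under it. Rora and Prdm1 were not called, with log2 fold changes of -1.01 and 0.66. Without tKO replicate 1, 2 of these factors were called lower. Ascl2 was at 0 counts in all libraries and Zbtb16 had 3 counts in all, so neither was tested.

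For the remaining markers, alpha-beta T cell genes went from summed levels of 3162 and 3184 CPM to 2262 and 2071 CPM, with 6 of 12 lower and none higher, and Trbc2, the most abundant, at 393 and 370 CPM against 397 and 351 CPM. CD8 lineage markers rose, 2 of 2, from 67.4 and 59.3 CPM to 238 and 214 CPM, led by Cd8a at 35.4 and 31 CPM against 147 and 130 CPM. Gamma-delta T cell markers rose, 5 of 5 tested of 6, from 6.98 and 4.36 CPM to 185 and 166 CPM, led by Trdc at 1.64 and 1.56 CPM against 57.9 and 53.6 CPM. Myeloid markers rose, 5 of 5 tested of 10, from 1.64 and 2.13 CPM to 23 and 15.8 CPM, led by Lyz2, with Adgre1 and S100a8 at 0 in WT. Dendritic cell markers rose, 3 of 3 tested of 6, from 8.98 and 7.78 CPM to 28.4 and 26.6 CPM, led by Zbtb46, with Clec9a, Cd209a and Siglech at 0 in WT. Genes near 0 in WT passed the filter on low counts only through their Mek1/2-tKO counts. The counts of risers among tested markers in these low lists therefore depend on the filter. Of the untested myeloid markers, Csf1r, Itgam and Mpo were higher in Mek1/2-tKO at low counts, and Fcgr1 and Csf3r were not. The part of all these cells in the receptor values was not tested.

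For each called receptor, the gene with the most similar pattern over the 4 libraries was the one with the smallest distance between centred log2 CPM. The nearest gene was Srpk3 for Cxcr4 (distance 0.0404), Cd80 for Cxcr3 (0.0422), Dguok for Cxcr5 (0.0329), Ccl5 for Cxcr6 (0.116), Klrc2 for Ccr2 (0.14), Il12rb2 for Ccr4 (0.0883), Scd2 for Ccr8 (0.183) and Gm16477 for Ccr6 (0.051). The number of tested genes within a distance of 0.5 ranged from 17 for Ccr2 to 1443 for Ccr6, and was 813 for Cxcr5, 390 for Ccr4, 242 for Cxcr3, 79 for Cxcr4, 71 for Cxcr6 and 30 for Ccr8.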

How the data were processed

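Strand-specific mRNA libraries of Tfh-polarized WT and Mek1/2-tKO CD4+ T cells, 2 per genotype, were sequenced by the authors in paired-end mode. The authors trimmed reads with Trimmomatic (v0.36), mapped them to GRCm38, and converted uniquely mapped reads to counts with featureCounts. The deposited values are raw counts per gene with no normalization. The annotation release and strand setting are not given in the sources used here. Library totals ranged from 16330802 to 18931090 counts. Of genes with 1 to 20 counts, 65.4 to 68.2% had an even count, and whether both reads of a pair were counted is not given.

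Counts were analysed with edgeR 4.0.16 (filterByExpr, TMM, robust quasi-likelihood fit, two-sided, Benjamini-Hochberg adjustment over 14330 genes) in R 4.3.3. Calls needed a change of 1.5-fold or more and an adjusted p below 0.05. DESeq2 1.42.0, other normalizations, filters and thresholds, and leaving out each library were alternatives. Halving the counts was added after seeing the data. The code was tested on simulated data. Replicate libraries were not copies of one another (chi-square per gene 4.07 in WT and 10.1 in Mek1/2-tKO). Symbols were matched to 54723 of 54752 identifiers.

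Members and gene lists were chosen with earlier results of these data known. Named genes were all members, Map2k1 and Map2k2, up to 4 called genes per direction of each list, all listed regulators, Cd4 and the most abundant marker of each list, listed genes of the chromosome 9 cluster, and the nearest gene of each called member. Promoters came from RefSeq (GRCm38.p6). Some genes that this rule names are not reported here. In vivo RNA-seq and ATAC-seq were not analysed here.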

Additional observations from a re-analysis of the deposited data

How the results depend on the processing

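All 9 receptors kept their direction under every alternative run that tested them. Of 306 recomputed fold changes and counts of called genes, 283 kept their call or, for counts of genes, stayed within 1.5 times. None of the fold changes reversed, whereas a count of genes has no direction to reverse. The 283 include counts that stayed at 0. Over the alternatives that used all libraries, the log2 fold change ranged from 3.53 to 3.63 for Cxcr4, from -3.48 to -3.38 for Ccr8 and from -0.40 to -0.29 for Ccr7. Ccr2 could not be tested where every library needed at least 10 counts, and leaving out single libraries moved it between 3.52 and 4.77. Requiring a fold change of at least 2 left 1725 genes higher and 1040 lower among all genes. With the replicate block, 6 receptors were higher and 2 lower, as without it, and 2652 and 2300 genes were called. The labels state no pairing of the replicate numbers. Same-numbered libraries deviated with a correlation of -0.0262, which cannot show whether they were paired. The block changed no receptor's call. Ackr3 lost its call with DESeq2, with the filter of 10 counts, at an adjusted p of 0.01, and without WT replicate 1 or tKO replicate 1. S1pr2 lost its call with DESeq2, at a fold change of 2, at an adjusted p of 0.01 and without WT replicate 2. In place of 4 signalling genes, 2 were called lower without WT replicate 2 and 2 without tKO replicate 2. The causes were not tested. With 2 libraries per genotype, an exact permutation test cannot go below a p of 0.333, and low WT counts limit the folds of Ccr2 and Cxcr6.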
